A study of Homo sapiens with 6 samples.

Results

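Keratins are the intermediate filament proteins of epithelial cells, and the genes described here are all those of the deposited table that are protein coding and named KRT followed by a number and at most 1 letter. That rule, which uses no measured value and leaves out the keratin-associated proteins, found 55 of the 58735 genes in the table. The cells were SZ95, an immortalised human line derived from the sebaceous gland. They had received either a mock plasmid (3 libraries, genotype WT in the labels) or a plasmid for TRPV3 overexpression (3 libraries), and the sample titles give a time of 24 h. Both groups received a plasmid and so had been through a transfection. The 3 samples of a group are biological replicates, per the design text. No source used here gives the share of cells that took up a plasmid or the promoter that drives TRPV3. TRPV3 is a calcium-permeable cation channel of skin epithelium, and the design text names its role in inflammation of sebocytes as the question.

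Keratin filaments are built from pairs, each with 1 acidic type I chain and 1 basic type II chain, so a cell makes both types. Which pair it makes follows its kind and state: KRT8 and KRT18 in simple epithelia, KRT5 and KRT14 in the basal layer of stratified epithelia, KRT1 and KRT10 in the layers above, KRT6 with KRT16 and KRT17 in wounds and in hyperproliferative skin, and a further set in the hard tissue of hair and nail. In the sebaceous gland the basal cells are known to express KRT5 and KRT14, KRT7 is a known marker of the gland, and KRT79 is known from its duct.

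The libraries held between 16.0 and 18.4 M reads, recovered from deposited FPKM values (fragments divided by gene length in kilobases and by a library factor), and TRPV3 was at 0.359 to 0.437 FPKM in the mock libraries and at 536 to 738 FPKM in the TRPV3 libraries. A gene of 1 kb with no read could still be at 0.165 to 0.185 FPKM, the worth of 3 reads, a limit that covers counting error only. A pair of libraries stood apart. TRPV3 replicate 1 was high in short genes: against the mean of the other TRPV3 libraries its median log2 deviation was 0.32 in tested genes with at most 2675 bases of exon and -0.26 in those with at least 7058. Mock replicate 3 had at least 1 read in 78.5% of the protein-coding genes under the filter of 1 FPKM, where the other 5 libraries had 44.5% to 45.8%. Of 12 sebocyte markers 7 had a mean of at least 1 FPKM, among them FADS2, a fatty acid desaturase (21.5 ± 2.08 FPKM with mock, SD, n = 3) and the mucin MUC1 (20.7 ± 1.24 FPKM), while AWAT2, a wax synthase of mature sebocytes, had no read in any library. Summed markers of fibroblasts were at 2.47 to 3.0 FPKM in mock libraries and 2.11 to 2.25 FPKM in TRPV3 libraries, those of melanocytes at 0.960 to 1.36 and 1.13 to 1.21 FPKM, and those of blood and endothelium at 1.11 to 1.43 and 1.32 to 1.48 FPKM. Most of each sum came from 1 gene, COL1A1 for fibroblasts, PMEL for melanocytes and CDH5 for blood and endothelium. The highest of the other markers in these lists was PDGFRB, at a mean of 0.131 FPKM in mock libraries. Whether any such cells were present, and their part in the keratin values, was not tested.

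Several keratin genes are near copies of each other, which bears on how far their reads can be told apart. Coding stretches of some such pairs with unequal levels are shown first. The hair keratin KRT83 and KRT6C, not printed, were lower still in mean FPKM (0.439 and 0.290) than KRT86 and KRT6B. In the GENCODE 29 transcripts the coding sequences of the hair keratins KRT81 and KRT86 had 85 differences over 1457 aligned bases (94.2% identity) and shared an unbroken identical run of 605 bases. The 90 aligned bases in which they differ most are coding positions 1237 to 1326 of each, counted from 1 at the start codon, and hold 19 differences, shown in capitals:
KRT81: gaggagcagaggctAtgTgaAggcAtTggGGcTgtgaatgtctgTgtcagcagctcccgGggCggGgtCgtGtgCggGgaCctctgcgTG
KRT86: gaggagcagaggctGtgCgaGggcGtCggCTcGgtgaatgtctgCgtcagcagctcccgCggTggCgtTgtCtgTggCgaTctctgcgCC

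KRT6A and KRT6B, which encode wound-induced type II chains, were closer still, with 43 differences over 1695 coding bases (97.5% identity). KRT6A and KRT6C had 35 (97.9% identity). The most unlike stretch of KRT6A and KRT6B, coding positions 656 to 745, holds 10 differences, again in capitals:
KRT6A: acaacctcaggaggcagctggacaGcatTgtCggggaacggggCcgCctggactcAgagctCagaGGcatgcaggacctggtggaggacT
KRT6B: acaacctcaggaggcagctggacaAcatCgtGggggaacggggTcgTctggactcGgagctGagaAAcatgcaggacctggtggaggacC

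Of all the 50-base windows in the KRT81 transcripts 43.7% also occur in transcripts of another gene, mostly KRT86. The share was 37.5% for KRT86, 32.1% for KRT6A and 47.1% for KRT6B. It was 16.8% for KRT14 and 16.5% for KRT16, which share sequence with each other and with KRT16 pseudogenes, 14.3% for KRT18, 10.1% for KRT8 and 9.02% for KRT17. KRT23 and KRT10 shared none, and the other 6 keratins described below shared at most 2.17%. Windows were compared in the direction of the transcripts only, so overlap with genes of the opposite strand is not counted. There KRT10 shares 56 exonic bases with TMEM99, whose highest library held 499 reads. KRT23 shares 186 with AC004231.1, which held at most 12 reads in a library. No source used here gives the read length or the treatment of reads that match several genes. The values of KRT86, KRT83, KRT6B and KRT6C, whose near copies were far more abundant, are therefore uncertain. For KRT14 and KRT16, which had few reads, the effect of shared windows was not tested.

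The keratin genes lie in a pair of clusters (hg38). Chromosome 12 holds 27 of the 55 between positions 52168996 and 52952901, a stretch of 784 kb with all 26 type II genes and the type I gene KRT18 at its end. Chromosome 17 holds the other 28, all type I, between 40654665 and 41624842. Of the 55, 17 had a mean of at least 1 FPKM over the 6 libraries and were tested, 9 of type I and 8 of type II, and 38 were below. The levels followed no single block. On chromosome 12 the neighbours KRT80, KRT7, KRT86 and KRT81 were all above 1 FPKM, the next hair keratin KRT83 was at 0.439 FPKM on average, KRT85, KRT84 and KRT82 were at most at 0.0219 FPKM, KRT6A and KRT5 were at 436 and 155 FPKM, and the stretch from KRT71 to KRT76 had no mean above 0.0340 FPKM. KRT8 and KRT18, adjacent at the end of the cluster on opposite strands, were at 349 and 375 FPKM.

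**Figure D1:**
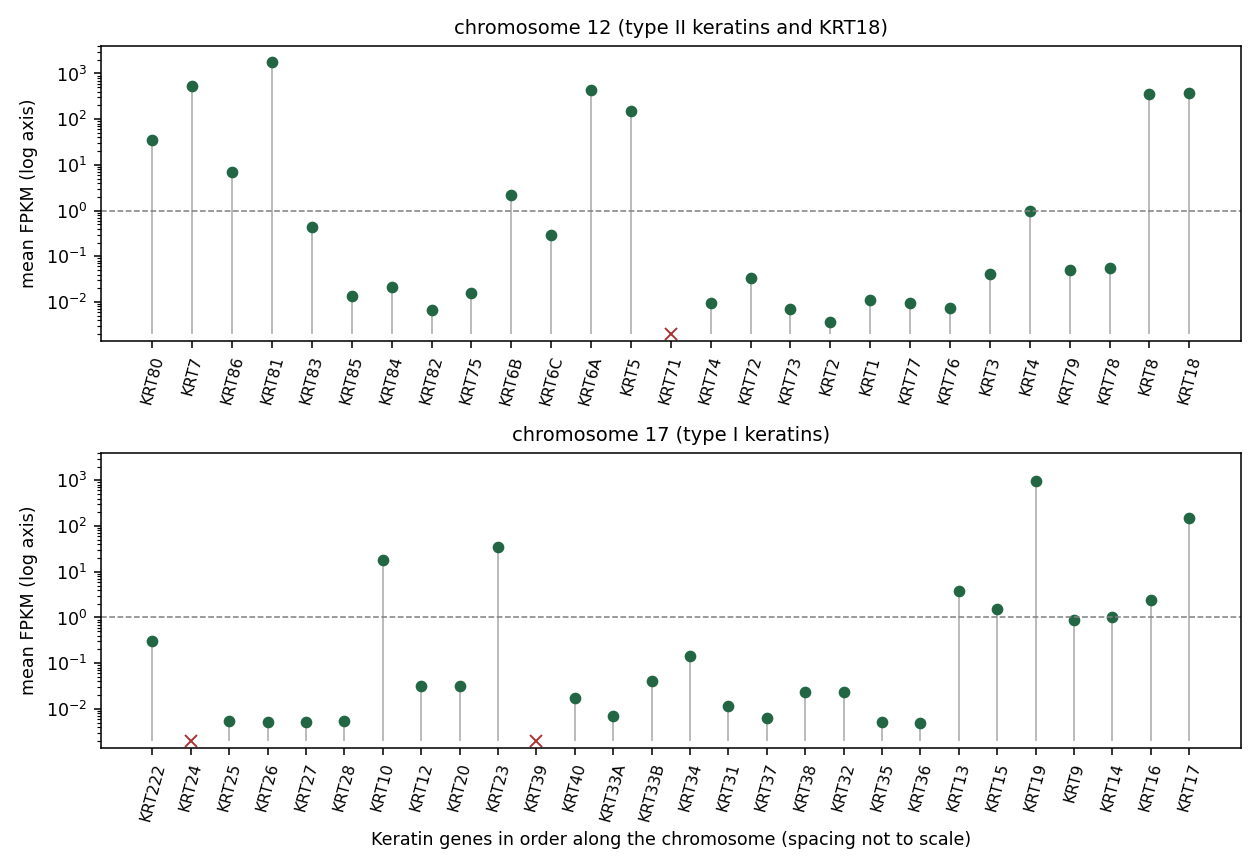
Mean FPKM over all 6 libraries (log axis) of the 55 keratin genes in their order along chromosomes 12 and 17, with spacing not to scale; the dashed line marks the filter of 1 FPKM and crosses mark genes with no read. Highly expressed genes stand beside genes with means under 0.05 FPKM, and KRT81 is the highest at 1778 FPKM.

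Promoter sequences from RefSeq (GRCh38.p14, 250 bases before to 50 after the gene's start there) were found for 34 of the 55 keratins, of which 3 were tested: KRT5, KRT8 and KRT10. Each window was searched on both strands for the letters TATAAA, the core of the TATA box, for TGANTCA, the AP-1 site, and for GGGCGG, the SP1 site; matches to different motifs cannot overlap. TATAAA was in 20 of the 34 keratin windows (58.8%) and in 11.95% of all 27305 windows searched. TGANTCA was in 0 of 34 and in 7.76% of all windows, and GGGCGG in 6 of 34 (17.6%) and in 44.6% of all windows. A match is a run of letters, not a site. Of the 34 windows only 3 belong to tested keratins, so no relation between motif and level can be read from them. KRT10 holds TATAAA, and the windows of KRT5 and KRT8 hold none of the 3 motifs. The KRT8 window (52926420 to 52926719) lies inside the gene as placed in the deposited table (52897187 to 52949954, minus strand), far from its start there. The KRT5 window also lies inside its gene, which starts at 52520687 on the minus strand. Sequence at those other starts was not searched. The windows of KRT10 (chr17:40822565-40822864, minus strand) and of KRT5 (chr12:52520345-52520644, minus strand) are printed as an example with and without the match, which is in capitals:
KRT10: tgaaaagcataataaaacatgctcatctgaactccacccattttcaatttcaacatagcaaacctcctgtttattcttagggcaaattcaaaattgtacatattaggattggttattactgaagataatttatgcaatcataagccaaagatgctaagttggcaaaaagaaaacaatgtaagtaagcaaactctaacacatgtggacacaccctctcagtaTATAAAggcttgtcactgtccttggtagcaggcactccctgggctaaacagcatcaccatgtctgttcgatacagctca
KRT5: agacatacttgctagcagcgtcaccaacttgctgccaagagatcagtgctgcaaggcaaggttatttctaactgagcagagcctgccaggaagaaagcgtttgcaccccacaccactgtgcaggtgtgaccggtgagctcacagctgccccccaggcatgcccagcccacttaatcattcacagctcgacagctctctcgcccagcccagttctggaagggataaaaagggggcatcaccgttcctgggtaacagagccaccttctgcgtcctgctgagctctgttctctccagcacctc

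The baseline was dominated by a few genes. In the mock libraries the 55 keratins summed to 4557 ± 89.6 FPKM (SD, n = 3), which was 1.67% ± 0.0781 of the FPKM of all genes. KRT81, KRT19, KRT7 and KRT6A made up 77.0% ± 0.895 of that sum, and with KRT18, KRT8, KRT5 and KRT17 the share was 97.7% ± 0.0809. By mean level over the 6 libraries KRT81 ranked 8 of all 58735 genes, KRT19 ranked 23, KRT7 ranked 40 and KRT6A ranked 51. The order below them was KRT18 (rank 63), KRT8 (74), KRT5 (208), KRT17 (221), KRT23 (1311), KRT80 (1339) and KRT10 (2779). Among the mock libraries the ranges of the neighbours KRT18 and KRT8, and of KRT80 and KRT23, lay close: KRT18 at 326 to 347 FPKM overlapped KRT8 at 319 to 335 FPKM, while KRT80 at 35.0 to 39.3 FPKM lay above KRT23 at 30.2 to 32.0 FPKM.

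With the TRPV3 plasmid no keratin passed the test. Of the 17 tested, 0 were called higher and 0 lower at an adjusted limma p under 0.05, where 0.0411% of all 12177 tested genes were called higher and 0% lower. The adjusted p-values of the 17 lay between 0.701 and 0.896. In bulk RNA, fewer cells of a type and less RNA per cell cannot be told apart. The fitted log2 fold change of FPKM + 1, TRPV3 plasmid against mock, was above 0 for 14 of the 17, with a median of 0.18, where 53% of all tested genes were above 0 and their median was 0.01. Without TRPV3 replicate 1 it was above 0 for 10 of 16 (53.5% of all genes), with a median of 0.06 beside 0.00798 for all genes tested, and limma again called 0 of 16 keratins, where it called 0.0657% of all genes, each of them higher.

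Before adjustment 4 keratins, KRT17, KRT23, KRT16 and KRT10, had a limma p under 0.05 and a higher mean with TRPV3, and none a lower one, where the background was 3.28% of genes higher and 1.21% lower. Without TRPV3 replicate 1 these were KRT16, KRT17 and KRT23 higher (3 of 16, background 4.47%) and KRT13 lower (1 of 16, background 2.55%). By limma-voom on the recovered reads without that library they were KRT10, KRT17 and KRT23 higher (3 of 16, background 3.53%) and KRT5 and KRT13 lower (2 of 16, background 4.43%), and 10 of 16 keratins were above 0, where 42.3% of all genes were. In 6 keratins, KRT23, KRT17, KRT10, KRT16, KRT18 and KRT6A, the lowest TRPV3 value exceeded the highest mock value (35.3% of the 17, where 9.49% of all tested genes did so), and in 0 the reverse held (5.39% of all tested genes). TRPV3 replicate 1 was the highest of the 6 libraries in 15 of the 17, all but KRT5 and KRT80, and in 40.9% of all tested genes. Keratin genes were shorter than most, with a median of 2913 exonic bases beside 4593 for all genes tested, and the part of the length pattern of that library in these counts was not tested. Without it, the same 6 keratins lay above in replicates 2 and 3 (background 14%), and KRT7 and KRT13 lay below (background 10.1%).

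**Figure D2:**
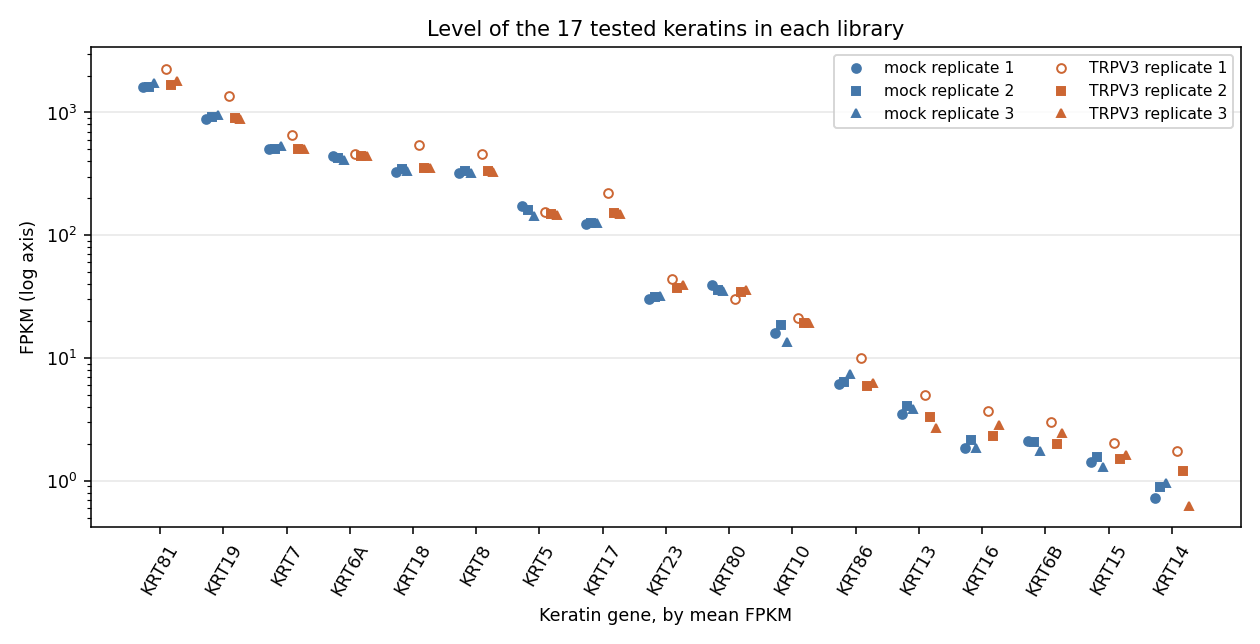
FPKM (log axis) of the 17 tested keratins in each of the 6 libraries, ordered by mean level; open circles are TRPV3 replicate 1. That library is the highest point for 15 of the 17 genes, and the groups are separate with TRPV3 above for KRT6A, KRT18, KRT17, KRT23, KRT10 and KRT16.

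Simple epithelial keratins were the largest group by level, and 4 of the 5 genes were tested. KRT19, the smallest keratin and known for its near-absent tail domain, was at 889.7, 914 and 951 FPKM in mock replicates 1 to 3 and at 1376, 904 and 883 FPKM in TRPV3 replicates 1 to 3. The groups overlapped, and TRPV3 replicates 2 and 3 lay within or under the range of mock. Its log2 fold change was 0.17 (95% interval -0.27 to 0.60), and -0.04 (-0.16 to 0.08) without TRPV3 replicate 1.

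KRT7, a type II chain of glandular epithelia, was at 502, 506 and 531 FPKM under mock and at 655, 499.96 and 500.2 FPKM with TRPV3. Here 1 TRPV3 library was above all of mock and the others were just below it. The log2 fold change of 0.09 (-0.22 to 0.40) was -0.04 (-0.15 to 0.08) without TRPV3 replicate 1. KRT7 shares 282 exonic bases with KRT7-AS on the opposite strand, an antisense gene whose highest library held 288 reads, and no source used here says whether counting used strand.

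KRT8 and KRT18 are each other's filament partners. KRT18 was at 326, 347 and 334 FPKM under mock and at 542, 353 and 350.2 FPKM with TRPV3. KRT8 was at 319, 335 and 320.4 FPKM under mock and at 455, 336 and 328 FPKM with TRPV3. KRT18 did not overlap between the groups, by a narrow margin in TRPV3 replicates 2 and 3, and KRT8 did. The log2 fold changes were 0.28 (-0.14 to 0.69) for KRT18 and 0.18 (-0.15 to 0.52) for KRT8, and without TRPV3 replicate 1 they were 0.07 (-0.04 to 0.18) and 0.03 (-0.08 to 0.14). The ratio of KRT8 to KRT18 was 0.968 ± 0.0102 with mock and 0.841, 0.951 and 0.936 in TRPV3 replicates 1 to 3, so that each TRPV3 library was below each mock library. The genes share 525 exonic bases on opposite strands, and processed pseudogenes of both are many. Among the 147 pseudogenes of all keratins 3 were above 1 FPKM. The highest was KRT8P3 at 2.87 ± 0.531 FPKM in mock libraries and 2.49 ± 0.0212 FPKM in TRPV3 libraries. KRT8P12 was at 1.34, 1.35 and 2.41 FPKM under mock and at 2.35, 2.40 and 2.43 FPKM with TRPV3, with overlap (log2 fold change 0.35, -0.02 to 0.72). The third, KRT87P, shares sequence with KRT81 and was at 2.03 ± 0.270 FPKM in mock and 1.99 ± 0.128 FPKM in TRPV3 libraries. The fifth simple keratin, KRT20 of gut epithelium, had at most 2 reads in any library.

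Of the 5 wound and hyperproliferation keratins 4 were tested, and 2 of these, KRT17 and KRT16, had the largest log2 fold changes of the tested keratins when all 6 libraries were used. Without TRPV3 replicate 1 the largest in size was that of KRT23 by limma (0.27) and of KRT13 by voom (-0.36). KRT17 (ENSG00000128422, chromosome 17, 41619441 to 41624842, minus strand), a type I chain of hair follicle and sebaceous epithelium that is also induced in inflamed and wounded skin, was at 124.1, 125.4 and 124.8 FPKM under mock and at 219, 151 and 148 FPKM with TRPV3. The mock libraries differed by about 1 FPKM, and each TRPV3 library was above them. Its log2 fold change was 0.44 (0.07 to 0.81, limma adjusted p = 0.755) with all libraries. Without TRPV3 replicate 1 it was 0.26 (0.16 to 0.36, limma adjusted p = 0.125), a ratio of means of 1.20 in place of 1.38. By limma-voom on the recovered reads without that library KRT17 passed (0.23, adjusted p = 0.0322), as 1 of the 16 keratins tested, where 0.501% of 12176 genes passed as higher; the adjusted limma and voom p of KRT17 ranged from 0.0322 to 0.966 over all settings tried.

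KRT16, a type I chain known as a marker of psoriatic and healing epidermis, was low, at 81, 87 and 83 reads with mock and 162, 103 and 122 reads with TRPV3. In FPKM it was at 1.86, 2.17 and 1.84 with mock and 3.71, 2.33 and 2.82 with TRPV3, with no overlap. The log2 fold change of 0.41 (0.08 to 0.73, limma adjusted p = 0.755) was 0.27 (0.03 to 0.51) without TRPV3 replicate 1.

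KRT6A, the abundant type II partner of these chains, was at 439, 428 and 408 FPKM under mock and at 459.8, 443 and 439.8 FPKM with TRPV3. The lowest TRPV3 library and the highest mock library were nearly equal, so the groups were separate by far less than the spread of either (SD 16.1 and 10.7 FPKM). Its log2 fold change was 0.07 (-0.14 to 0.29), and it turned to -0.17 under quantile normalization, -0.02 under TPM scaling and -0.00717 with the length trend removed. KRT6B was at 2.12, 2.05 and 1.73 FPKM under mock and 3.03, 1.98 and 2.43 FPKM with TRPV3, with overlap. For KRT6B the log2 fold change was 0.22 (-0.08 to 0.53), and 0.11 (-0.14 to 0.36) without TRPV3 replicate 1. The ratio of KRT6A to this near copy was 217 ± 15.9 with mock and 185 ± 36.1 with TRPV3. KRT6C had 8 to 29 reads in each library and was not tested.

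The proportion of the type II chain to its type I partners did not overlap between the groups. KRT6A over KRT17 was 3.54, 3.42 and 3.27 in mock replicates 1 to 3 and 2.10, 2.93 and 2.97 in TRPV3 replicates 1 to 3. All 3 TRPV3 ratios were below all mock ratios, also in the replicates other than TRPV3 replicate 1. KRT6A over KRT16 was 218 ± 19.3 with mock and 157 ± 33.3 with TRPV3. KRT17 and KRT16 were themselves separate between the groups, so these ratios are not a further result. No background share was computed for any ratio given here.

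Basal keratinocyte keratins were uneven. KRT5, the type II chain of basal cells, was at 174, 162 and 144 FPKM under mock and at 155, 148 and 145 FPKM with TRPV3, with the TRPV3 libraries inside the range of mock. The log2 fold change was -0.09 (-0.32 to 0.14) and kept its sign in all 17 alternatives tried. Some of these, the changed filters, no trend and the replicate block, cannot alter a fitted change, so KRT5 kept its main value there by construction. Its usual partner KRT14 was 190 ± 45.9 times lower in FPKM with mock: it was at 0.724, 0.891 and 0.962 FPKM there and at 1.74, 1.20 and 0.626 FPKM with TRPV3, or 25 to 70 reads in a library. TRPV3 held both the highest and the lowest KRT14 library, and the log2 fold change was 0.21 (-0.25 to 0.66). KRT15, a type I chain of basal and follicle stem cells, was at 1.41, 1.55 and 1.30 FPKM under mock and at 2.03, 1.49 and 1.61 FPKM with TRPV3, with overlap. For KRT15 the log2 fold change was 0.16 (-0.10 to 0.42), and 0.08 (-0.15 to 0.31) without TRPV3 replicate 1. TP63, the transcription factor that marks basal cells of stratified epithelia, was under the filter, with 0.400 ± 0.112 FPKM in mock and 0.334 ± 0.0481 FPKM in TRPV3 libraries.

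Of the suprabasal epidermal keratins only KRT10 was tested. It was at 16.0, 18.7 and 13.5 FPKM under mock and at 21.1, 19.1 and 19.4 FPKM with TRPV3. The highest mock library, replicate 2, was just under the lowest TRPV3 library, and the mock libraries were more spread than the TRPV3 libraries. Its log2 fold change was 0.30 (0.02 to 0.59, limma adjusted p = 0.755), and 0.26 (-0.02 to 0.54) without TRPV3 replicate 1. KRT1, its partner in differentiating epidermis, had 3 reads in mock replicate 3 and 0 in the other 5 libraries, KRT2 had 1 read there and KRT77 had 2 reads there and 2 in TRPV3 replicate 1. KRT9, known from palm and sole, averaged 0.725 ± 0.140 FPKM in mock and 1.03 ± 0.411 FPKM in TRPV3 libraries.

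Hair and nail keratins summed to 1659 ± 79.4 FPKM with mock, nearly all of it KRT81. KRT81 (ENSG00000205426, chromosome 12, 52285913 to 52291534, minus strand), a type II chain of the hair cortex, was at 1604, 1609.7 and 1742 FPKM under mock and at 2253, 1671 and 1791 FPKM with TRPV3. TRPV3 replicates 2 and 3 lay on both sides of mock replicate 3. The log2 fold change was 0.19 (-0.16 to 0.55), and 0.07 (-0.08 to 0.22) without TRPV3 replicate 1. KRT86, whose coding stretch is printed above beside that of KRT81, was at 6.11, 6.38 and 7.36 FPKM under mock and at 9.94, 5.86 and 6.21 FPKM with TRPV3. The groups overlapped, and the log2 fold change of KRT86 was 0.10 (-0.33 to 0.53), and -0.11 (-0.31 to 0.08) without TRPV3 replicate 1. The ratio of KRT81 to KRT86 was 250.4 ± 12.9 with mock and 267 ± 34.8 with TRPV3. KRT83, the third close relative, with 93.3% coding identity to KRT81, had 7 to 24 reads. No type I hair keratin reached 0.5 FPKM in any library: the highest was KRT34, with 2 to 11 reads.

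KRT23 (ENSG00000108244, chromosome 17, 40922696 to 40937634, minus strand), a type I keratin, had the smallest limma p of the family. It was at 30.2, 31.6 and 32.0 FPKM under mock and at 43.8, 36.9 and 39.1 FPKM with TRPV3. The groups did not overlap, with or without TRPV3 replicate 1. Its log2 fold change was 0.34 (0.14 to 0.55, limma adjusted p = 0.701), and 0.27 (0.15 to 0.40, limma adjusted p = 0.185) without TRPV3 replicate 1. KRT23 was above 0 in all 17 alternatives, between 0.25 and 0.40. The changed filters, no trend and the replicate block cannot alter a fitted log2 fold change, so those settings repeat the main value by construction.

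KRT80, a type II chain found across many epithelia, was the other tested member of its group. It was at 39.3, 35.7 and 35.0 FPKM under mock and 30.2, 34.4 and 35.7 FPKM with TRPV3. With KRT5 it was 1 of 2 among the 17 tested keratins in which TRPV3 replicate 1 was not the highest library, and here it was the lowest. The log2 fold change was -0.13 (-0.35 to 0.09), and -0.06 (-0.21 to 0.08) without that library. KRT79, the keratin known from the sebaceous duct, had 13 reads in mock replicate 3, 1 in TRPV3 replicate 2 and 0 in the other libraries.

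Among mucosal and corneal keratins KRT13, a type I chain of the mouth and oesophagus lining, was at 3.50, 4.06 and 3.81 FPKM under mock and at 5.02, 3.30 and 2.71 FPKM with TRPV3. TRPV3 held both extremes. The log2 fold change of -0.06 (-0.48 to 0.35) was -0.26 (-0.48 to -0.04, limma adjusted p = 0.644) without TRPV3 replicate 1 and 0.09 without TRPV3 replicate 3. Its partner KRT4 was just under the filter, at 1.06 ± 0.0986 FPKM in mock and 0.917 ± 0.215 FPKM in TRPV3 libraries. The KRT13 values rested on 138 to 258 reads.

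**Figure D3:**
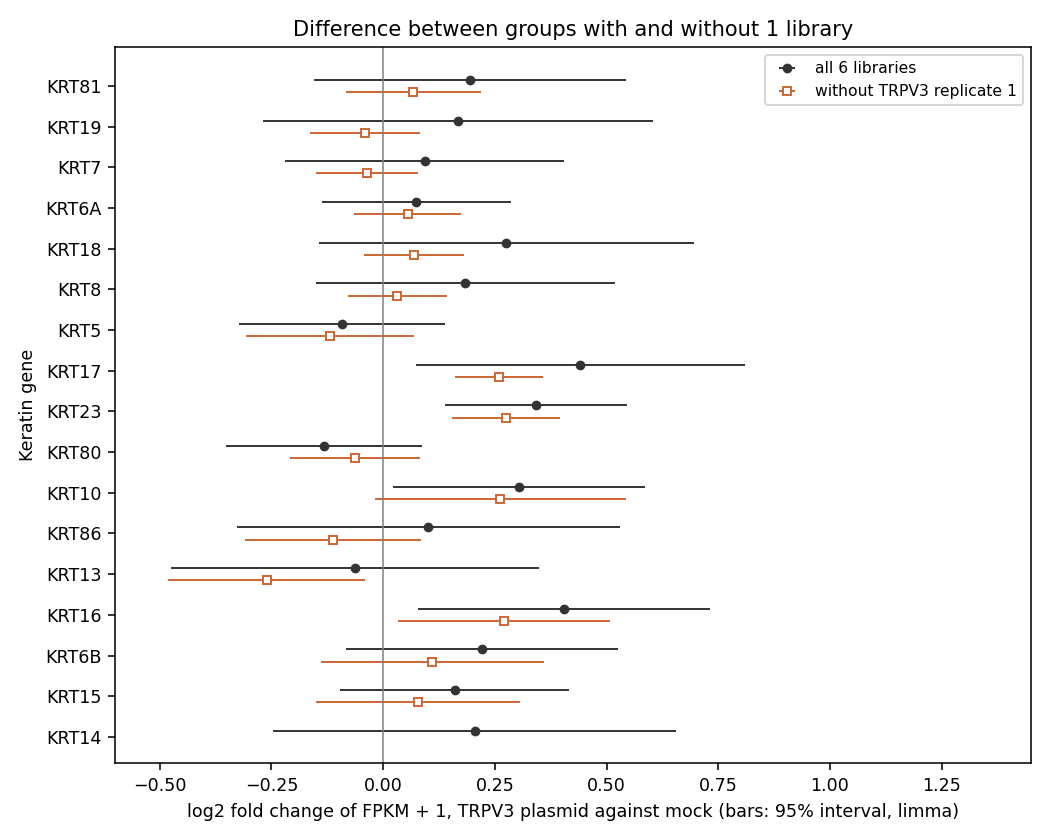
Log2 fold change of FPKM + 1 for each tested keratin with its 95% limma interval, from all 6 libraries (filled) and without TRPV3 replicate 1 (open; KRT14 is then under the filter). Intervals are narrower without that library for most genes, and those of KRT17, KRT23 and KRT16 stay above 0 in both fits, before adjustment.

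Summed over the family, 1 library stood apart from the other 5. Summed FPKM was 4483, 4533 and 4657 in mock replicates 1 to 3 and 6239, 4617 and 4698 in TRPV3 replicates 1 to 3. The groups overlapped, and TRPV3 replicate 1 was above all other libraries. The ratio of group means was 1.14, and 1.02 without that library. Summed FPKM of all genes was also highest in TRPV3 replicate 1, at 322412 beside 264448 to 280840 in the others. For all genes the ratio of group means was 1.07, and 1.02 without TRPV3 replicate 1. Under TPM scaling the keratin ratio was 1.05. Type I chains summed to 1435 ± 36.3 FPKM with mock and type II chains to 3122 ± 60.6 FPKM. The type II to type I ratio was 2.18 ± 0.0401 with mock and was 1.82, 2.13 and 2.24 in TRPV3 replicates 1 to 3, the first being the lowest of the 6 libraries. By sum, type I chains were 1.19 times as high with TRPV3 as with mock (1.02 without TRPV3 replicate 1) and type II chains 1.11 times (1.02 without it). The wound set was at 568, 558 and 536 FPKM under mock and 686, 599 and 593 FPKM with TRPV3, with no overlap, and the basal set was at 176, 164 and 146 FPKM and 159, 151 and 147 FPKM, with overlap. The wound sum is mostly KRT6A and KRT17, which were separate on their own, as given above.

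**Figure D4:**
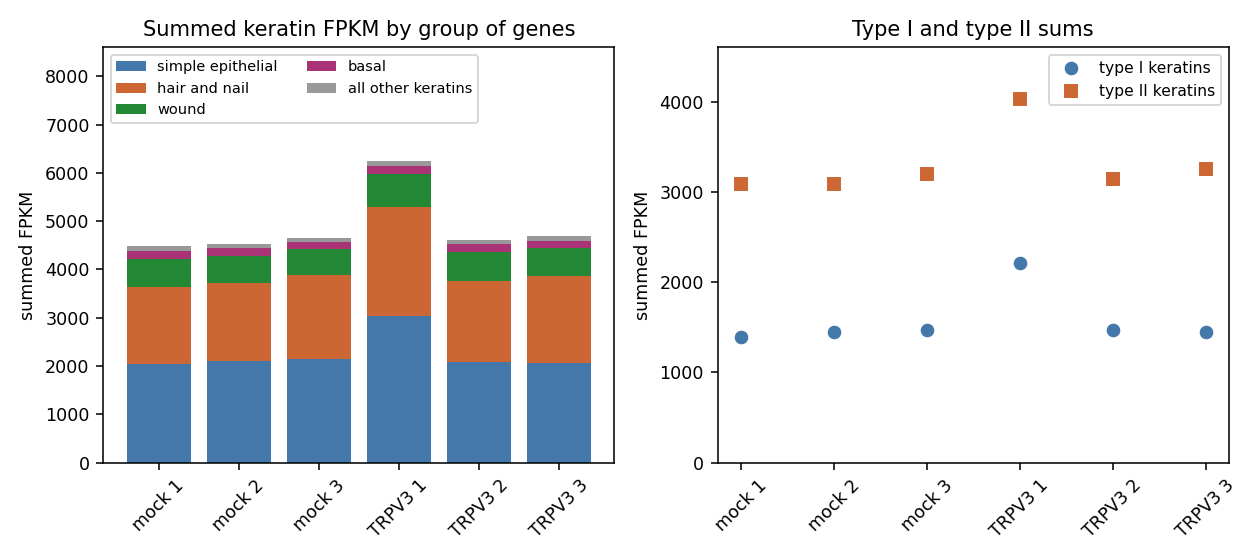
Left, summed FPKM of the keratins in each library as stacked bars from 0, by group of genes; right, the sums of type I and type II chains in each library as single points. Of the 6 libraries 5 reach 4483 to 4698 FPKM in total, and TRPV3 replicate 1 reaches 6239 FPKM. The sum over all genes, not drawn, was also highest in that library.

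Most of the 38 keratins under the filter were close to silent. Of the 38, 34 stayed under 0.5 FPKM in every library, and the other 4 were KRT4, KRT9, KRT83 and KRT6C. KRT4 had 45 to 70 reads in a library and KRT9 had 21 to 60, beside 25 to 70 for KRT14, which was tested. No read was found in any library for 3 of the 38, KRT24, KRT39 and KRT71. A further 16 had reads in mock replicate 3 alone, between 1 and 8 each, among them the hair keratins KRT31, KRT33A, KRT35, KRT36 and KRT37 and the root sheath keratins KRT25 to KRT28. At least 1 read was seen for 33 of the 38 (86.8%) in mock replicate 3 and for 9 to 13 of the 38 in each of the other 5 libraries. Among all protein-coding genes under the filter the share with a read was 78.5% in mock replicate 3 and 44.5% to 45.8% in the other 5 libraries. The keratin share was above this in mock replicate 3 and below it, at 23.7% to 34.2%, in the other 5. The cause was not tested. The 94 keratin-associated protein genes, which encode the matrix of hair, summed to at most 1.15 FPKM in a mock library and 0.152 FPKM in a TRPV3 library, and 74 of them had no read at all.

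Genes that work with the keratins gave no call either. All 14 linkers and regulators of keratin filaments were measured; 3 had a log2 fold change above 0, where 53% of all tested genes did, and 0 passed the limma test, where 0.0411% of all did. Their median was -0.15, and -0.00147 without TRPV3 replicate 1. SFN, a 14-3-3 protein that binds KRT17, was at 182 ± 5.42 FPKM in mock libraries and 227 ± 59.3 FPKM in TRPV3 libraries, of which replicate 1 was at 295 FPKM and replicates 2 and 3 at 192 and 194 FPKM. SFN had a log2 fold change of 0.29, and of 0.08 without replicate 1. JUP, the desmosome plaque protein plakoglobin, was at 131 ± 1.14 and 134 ± 2.32 FPKM. Each TRPV3 value of SFN lay above all mock values, as in 9.49% of all tested genes. In EVPL (14.1 ± 0.763 and 12.5 ± 0.232 FPKM) and FAM83H (74.8 ± 1.69 and 65.5 ± 10.9 FPKM) the reverse held, as in 5.39% of all tested genes. Both were named after their values were seen. Of 10 measured transcription factors of keratin genes 0 passed and 4 were above 0, against the same background shares, with a median of -0.03. KLF5, a factor of proliferating epithelium, was at 56.4 ± 4.14 and 52.4 ± 5.09 FPKM, and TFAP2C at 17.3 ± 0.197 and 17.04 ± 0.515 FPKM. In SOX9, a factor of follicle and sebaceous progenitors, and KLF4, a factor of epidermal differentiation, both named after their values were seen, the lowest TRPV3 value exceeded the highest mock value, as in 9.49% of all tested genes. SOX9 was at 13.3 ± 0.884 and 16.9 ± 1.28 FPKM (log2 fold change 0.33, 0.12 to 0.54, limma adjusted p = 0.755). KLF4 was at 6.97 ± 0.185 and 8.21 ± 0.739 FPKM (0.21, 0.01 to 0.40, limma adjusted p = 0.755). Of 11 genes of other cytoplasmic intermediate filaments 2 were measured, NEFH, a neurofilament chain, at 7.69 ± 0.600 and 8.49 ± 0.492 FPKM and INA, alpha-internexin, at 6.58 ± 0.186 and 6.65 ± 0.870 FPKM, and 0 passed. VIM, the filament gene of mesenchymal cells and of many cultured lines, had at most 2 reads in any library. The 11 genes summed to 15.4 to 17.5 FPKM over the 6 libraries, beside 4483 to 6239 FPKM for the keratins.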

How the data were processed

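The authors deposited 1 table of FPKM values for all genes in the 6 libraries, with gene lengths and coordinates, per the file headers. The submitters' processing notes name HISAT2 2.0.5 and hg38. The sources used here do not say how reads were counted, or whether by strand. Coordinates and merged exon lengths of all 55 keratins equalled those of GENCODE 29. FPKM times length gave whole multiples of 1 step for 100% of values (tolerance 0.02 reads), which gave the recovered reads. The 12177 genes that averaged 1 FPKM or more were tested as log2(FPKM + 1), which understates changes of low genes, with a linear model of group in limma 3.58.1 (R 4.3.3), moderated with an intensity trend, and Benjamini-Hochberg adjusted over all genes; a call is an adjusted p under 0.05. Keratins with a mean of at least 1 FPKM are named with all values, those below it where a library reached 0.5 FPKM or where said; of each other list, called members and the 2 of highest mean. KRT20, KRT34, KRT79, the partner and relative genes with few reads and the marker genes beside them were named after their values were seen. Members and lists were chosen with earlier results of these data known. On simulated reads for this comparison (12251 genes, spread of the mock libraries only) the test found 91% of 1.5-fold and 100% of 2-fold changes, and 14 of its 207 calls were false. The wider spread of TRPV3 replicate 1 was not simulated, so these shares do not measure the power of the real comparison. In the real data KRT16, at a ratio of means of 1.51, had a limma adjusted p of 0.755. Alternatives were another pseudocount (0.1), no filter or 5 FPKM, other scalings, no trend, a replicate block, removal of a length trend (lowess, span 0.3), limma-voom on recovered reads and each library left out. Figures were drawn with matplotlib 3.10.9.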

Additional observations from a re-analysis of the deposited data

How the results depend on the processing

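No keratin was called in 16 of the 17 alternatives, and 1 of 16 tested (KRT17, 0.23) by voom on recovered reads without TRPV3 replicate 1. With 1 library left out, limma called 0 keratins, the family median of 0.18 lay between 0.06 and 0.25, and the summed ratio of 1.14 between 1.02 and 1.20. With all libraries the family median was 0.0906 under quantile normalization, 0.0970 under TPM scaling and 0.135 under scaling to total reads. It was 0.0947 with the length trend removed and 0.195 with a pseudocount of 0.1. The summed ratio was 1.05 under TPM scaling and 1.10 under scaling to total reads. With no filter the median over 52 keratins was -0.01. Under quantile normalization the log2 fold changes of KRT7 (-0.113), KRT6A (-0.168) and KRT8 (-0.0321) turned negative, and under TPM scaling those of KRT7 (-0.00463) and KRT6A (-0.0228). With the length trend removed KRT6A was at -0.00717 and KRT86 at -0.00469. By voom without TRPV3 replicate 1, KRT19 (-0.0694), KRT7 (-0.0664) and KRT86 (-0.161) turned negative. With 1 library left out, KRT19 ranged from -0.0396 to 0.280, KRT7 from -0.0365 to 0.158 and KRT86 from -0.112 to 0.225, each lowest without TRPV3 replicate 1, and KRT13 from -0.261 without that library to 0.0890 without TRPV3 replicate 3. The cause was not tested. The replicate number as a block also called 0 keratins. As each group holds each number once, the block cannot alter a fitted log2 fold change, and the median of 0.18 was bound to stay. Same-numbered samples did not deviate together (correlations of -0.272, -0.0387 and -0.168), so the numbers were not taken as pairs. KRT14 was under the filter without TRPV3 replicate 1 or 2. Depth limits the 38 low keratins, of which 20 had under 3 reads in every library.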
